A study of Mus musculus with 3 samples.

Results

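The collagens are the family of triple-helical proteins that give vessel walls, basement membranes and connective tissue their strength. Every protein-coding gene of the mouse annotation whose symbol has the form Col, type number, a, chain number was taken. The annotation holds 44 such genes, and 42 of them had a transcript in the deposited tables, among 29787 genes with a transcript in all. The remaining pair, Col6a5 and Col22a1, has no value here. All 42 reached a level of 1 RPM (reads of a gene per 1000000 reads of the library, after scaling) in at least 1 library, the filter for low values that 16294 genes passed, but Col10a1 passed only through WT C57BL6-BALB/c. The 42 genes were divided into 8 basement membrane collagens (types IV, XV and XVIII), 11 fibrillar collagens (types I, II, III, V, XI, XXIV and XXVII), 5 microfibrillar collagens (type VI) and 18 others.

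RNA was sequenced from brain vessels of 3-month-old mice in 3 groups with 1 library each. Connexin 43, encoded by Gja1, is a gap junction protein of astrocytes, the glial cells whose endfeet cover brain vessels. The Cx43-deleted library came from hGFAP-Cre/Cx43fl/fl mice (genotype Cx43 -/-), in which Cre recombinase is driven by the human GFAP promoter, so that recombination is expected in GFAP-expressing cells and their descendants and not in every cell of a vessel. Its background was C57BL6-BALB/c. One WT library shares that background, labelled C57BL6-BALB/c, and the other is WT C57BL6. The labels do not say how many mice went into a library. Where 3 values stand in a row below, the Cx43-deleted library comes first, the WT library of its background (C57BL6-BALB/c) next and WT C57BL6 last.

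A collagen molecule is a trimer of alpha chains, which can be identical or come from different genes. Type IV forms the sheet of the basement membrane that endothelial cells, pericytes and astrocyte endfeet share. Types I, III, V and XI build fibrils of the adventitia and meninges, and type VI forms beaded microfibrils that link basement membrane to fibrils. Chains are hydroxylated, folded with dedicated chaperones, trimmed of their propeptides and cross-linked before they become matrix.

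With 1 library per group, no test between groups was possible, and every difference below is between libraries. Intervals beside folds and ratios are exact 95% binomial intervals and cover counting error only, not the spread between mice. The library totals were 54975610, 21170766 and 24830975 reads. Both comparisons with a WT library share the Cx43-deleted one, so a value peculiar to it enters both. Gja1 was counted with 2574, 4276 and 5138 reads. Its level per length was 15.7, 65.9 and 65.4 RPKM (RPM per kilobase of transcript), 4.20-fold lower (4.0 to 4.41) and 4.17-fold lower (3.98 to 4.38) than in the WT libraries. Endothelial markers were measured in all libraries (10 of 10 passed the filter), with a summed level of 2664, 2934 and 5150 RPM. Choroid plexus markers, which are no part of a vessel, summed to 3393, 2462 and 6504 RPM (6 of 6), and neuron markers to 1914, 2015 and 1679 RPM (6 of 6). In bulk samples such as these, fewer cells of a type and less RNA per cell cannot be told apart.

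Type IV chains are encoded in pairs that start next to each other on opposite strands, and the pair Col4a1 and Col4a2 is shown because the levels of its chains differed from each other across the libraries. Windows of 300 bases around the RefSeq start (250 bases before to 50 after, GRCm38.p6, 5′ to 3′ on the gene's strand) are chr8:11312777-11313076 for Col4a1 (minus strand) and chr8:11312555-11312854 for Col4a2 (plus strand). Capitals mark the 78 bases that both windows contain, read on opposite strands.
Col4a1: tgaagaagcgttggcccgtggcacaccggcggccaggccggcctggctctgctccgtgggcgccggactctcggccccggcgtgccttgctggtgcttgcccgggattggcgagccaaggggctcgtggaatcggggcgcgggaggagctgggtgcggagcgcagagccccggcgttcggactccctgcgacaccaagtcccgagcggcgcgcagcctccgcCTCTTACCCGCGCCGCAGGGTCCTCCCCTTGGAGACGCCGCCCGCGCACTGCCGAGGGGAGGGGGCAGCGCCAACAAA
Col4a2: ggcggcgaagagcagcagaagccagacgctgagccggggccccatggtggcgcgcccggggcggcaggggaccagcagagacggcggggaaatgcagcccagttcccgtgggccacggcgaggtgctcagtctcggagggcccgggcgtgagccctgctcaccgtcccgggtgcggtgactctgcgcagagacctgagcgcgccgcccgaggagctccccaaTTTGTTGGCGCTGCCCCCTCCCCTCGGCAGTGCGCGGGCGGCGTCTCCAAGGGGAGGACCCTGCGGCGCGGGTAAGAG
The annotated first bases of Col4a1 and Col4a2 overlapped by 22 bases. Col4a4 and Col4a3 began 71 bases apart, and Col4a6 and Col4a5 1308 bases apart.

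Windows of 4 more genes are shown, a selection from the 18 collagens that were higher in the Cx43-deleted library than in either WT library. These were 3 type VI chains, Col6a1 (chr10:76725995-76726294, minus strand), Col6a3 (chr1:90843922-90844221, minus strand) and Col6a6 (chr9:105828036-105828335, minus strand), and Col16a1 (chr4:130047590-130047889, plus strand). Capitals mark the GC box GGGCGG and the CCAAT box CCAAT, on either strand.
Col6a1: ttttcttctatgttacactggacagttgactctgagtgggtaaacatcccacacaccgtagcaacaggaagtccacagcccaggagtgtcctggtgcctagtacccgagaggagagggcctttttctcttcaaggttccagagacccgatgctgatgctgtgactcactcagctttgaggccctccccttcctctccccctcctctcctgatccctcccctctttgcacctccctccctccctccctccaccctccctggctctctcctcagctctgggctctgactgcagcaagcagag
Col6a3: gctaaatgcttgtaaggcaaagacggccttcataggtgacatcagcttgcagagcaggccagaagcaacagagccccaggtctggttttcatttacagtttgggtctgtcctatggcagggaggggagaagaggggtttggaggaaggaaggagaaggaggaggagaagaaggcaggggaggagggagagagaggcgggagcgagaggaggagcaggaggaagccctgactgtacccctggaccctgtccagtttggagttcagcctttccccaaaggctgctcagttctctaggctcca
Col6a6: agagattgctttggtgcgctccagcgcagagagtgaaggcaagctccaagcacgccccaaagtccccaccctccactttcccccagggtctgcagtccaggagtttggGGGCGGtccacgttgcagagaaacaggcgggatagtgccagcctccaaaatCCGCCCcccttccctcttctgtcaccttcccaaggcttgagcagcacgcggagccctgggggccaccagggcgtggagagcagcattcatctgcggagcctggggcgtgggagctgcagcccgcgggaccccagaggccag
Col16a1: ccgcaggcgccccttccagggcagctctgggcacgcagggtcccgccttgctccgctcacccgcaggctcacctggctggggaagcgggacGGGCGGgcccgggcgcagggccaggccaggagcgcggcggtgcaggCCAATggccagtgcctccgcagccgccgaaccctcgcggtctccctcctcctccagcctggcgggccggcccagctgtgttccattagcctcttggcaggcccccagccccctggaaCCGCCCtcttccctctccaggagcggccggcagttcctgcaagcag
Col6a1 and Col6a3 held neither of these motifs nor the TATA box TATAAA in this window, whereas Col6a6 held 2 GC boxes and Col16a1 held GC boxes on both strands and a CCAAT box. Col6a2, a type VI chain also above both WT libraries, is not shown, and its windows held 3 and 1 GC boxes. These motifs do not overlap in letters with each other. Across the family, 34 genes had 37 such windows, of which 22 (59.5%) contained a GC box, against 35.7% of all 32851 windows. A CCAAT box was present in 35.1% of the collagen windows and 37.4% of all windows, and TATAAA in 13.5% and 13.6%. A match of letters is a description of the window and not a binding site.

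Across the family, the highest levels belonged to Col6a1 (104, 73.3 and 52.5 RPKM), Col4a2 (94.3, 85.4 and 74.1 RPKM) and Col4a1 (70.2, 68.9 and 79.6 RPKM). Below them, 36 of the 42 collagens stayed under 22 RPKM in every library. The summed level of all collagens was 3177, 2828 and 2768 RPM. Its composition differed too. Of the summed RPKM, type VI made up 23.6%, 19.5% and 15.1%, and the basement membrane collagens 34.5%, 39.0% and 39.5%. Most of the type VI share was Col6a1 in every library. The fibrillar collagens made up 19.1%, 20.3% and 20.1%, and the other types 22.7%, 21.2% and 25.3%.

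**Figure D1:**
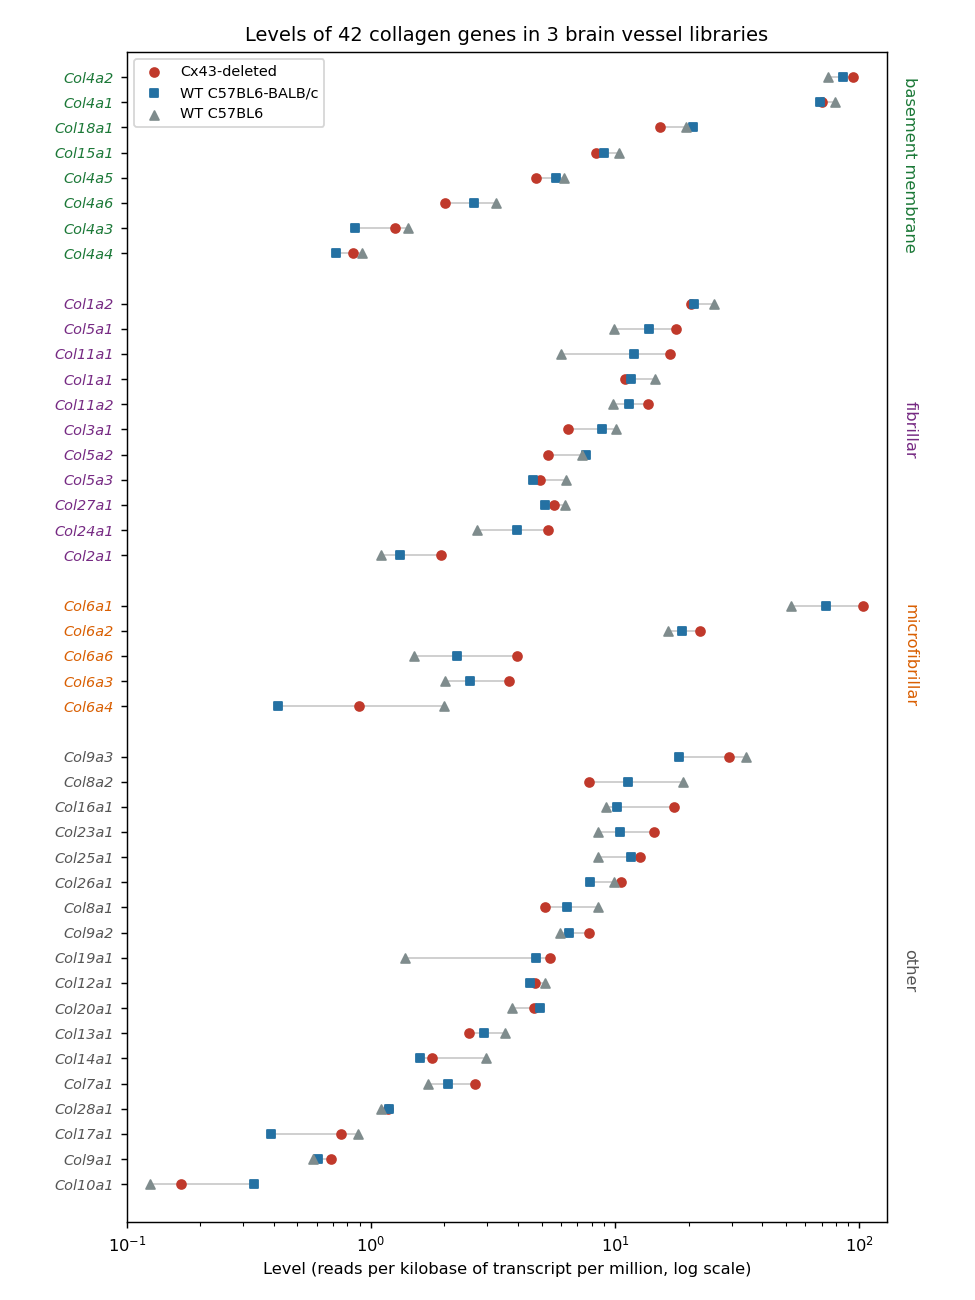
Level of each of the 42 collagens in RPKM (log scale), with 1 point per library and a grey line from the lowest to the highest library, grouped by collagen class. Col6a1, Col4a2 and Col4a1 lie furthest right, and 4 of the 5 type VI genes have the Cx43-deleted library on the right and WT C57BL6 on the left.

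In the Cx43-deleted library 18 of the 42 collagens (42.9%) lay above both WT libraries, against 33.4% of all genes tested, and 11 (26.2%) lay below both, against 35.6%. At 1.5-fold or more from both, 2 collagens were higher, Col16a1 and Col6a6, where 1.17% of all genes were, and none was lower, where 1.99% of all genes were. The share of 4.76% rests on 2 genes alone. An order from highest in the Cx43-deleted library, over WT C57BL6-BALB/c, to lowest in WT C57BL6 was found in 17 collagens (40.5%), against 24.1% of all genes. Conversely, 9 collagens (21.4%) were highest in WT C57BL6 and lowest in the Cx43-deleted library, against 26.7% of all genes.

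Each comparison on its own gave the following counts at 1.5-fold on the log2(RPM + 0.5) scale. Against WT C57BL6-BALB/c, the library of the same background, 5 collagens were higher in the Cx43-deleted library (2.82% of all genes were) and 1 was lower (3.71% of all genes). The higher ones were Col6a4, Col6a6, Col9a3, Col16a1 and Col17a1. The lower one was Col10a1, counted with 28, 22 and 10 reads. It passed the filter only through WT C57BL6-BALB/c, where it was highest, so its calls in this paragraph rest on that library. Against WT C57BL6, 11 collagens were higher (8.54% of all genes) and 6 lower (11.7% of all genes). The WT libraries themselves differed by as much for 9 collagens, 3 higher in WT C57BL6-BALB/c (6.12% of all genes) and 6 higher in WT C57BL6 (8.44% of all genes). The first were Col10a1, Col11a1 and Col19a1. The median log2 ratio of the family was 0.15 against WT C57BL6-BALB/c, it was -0.01 against WT C57BL6, and that of WT C57BL6-BALB/c to WT C57BL6 was 0.05. The medians over all genes were 0.00, -0.03 and -0.03.

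**Figure D2:**
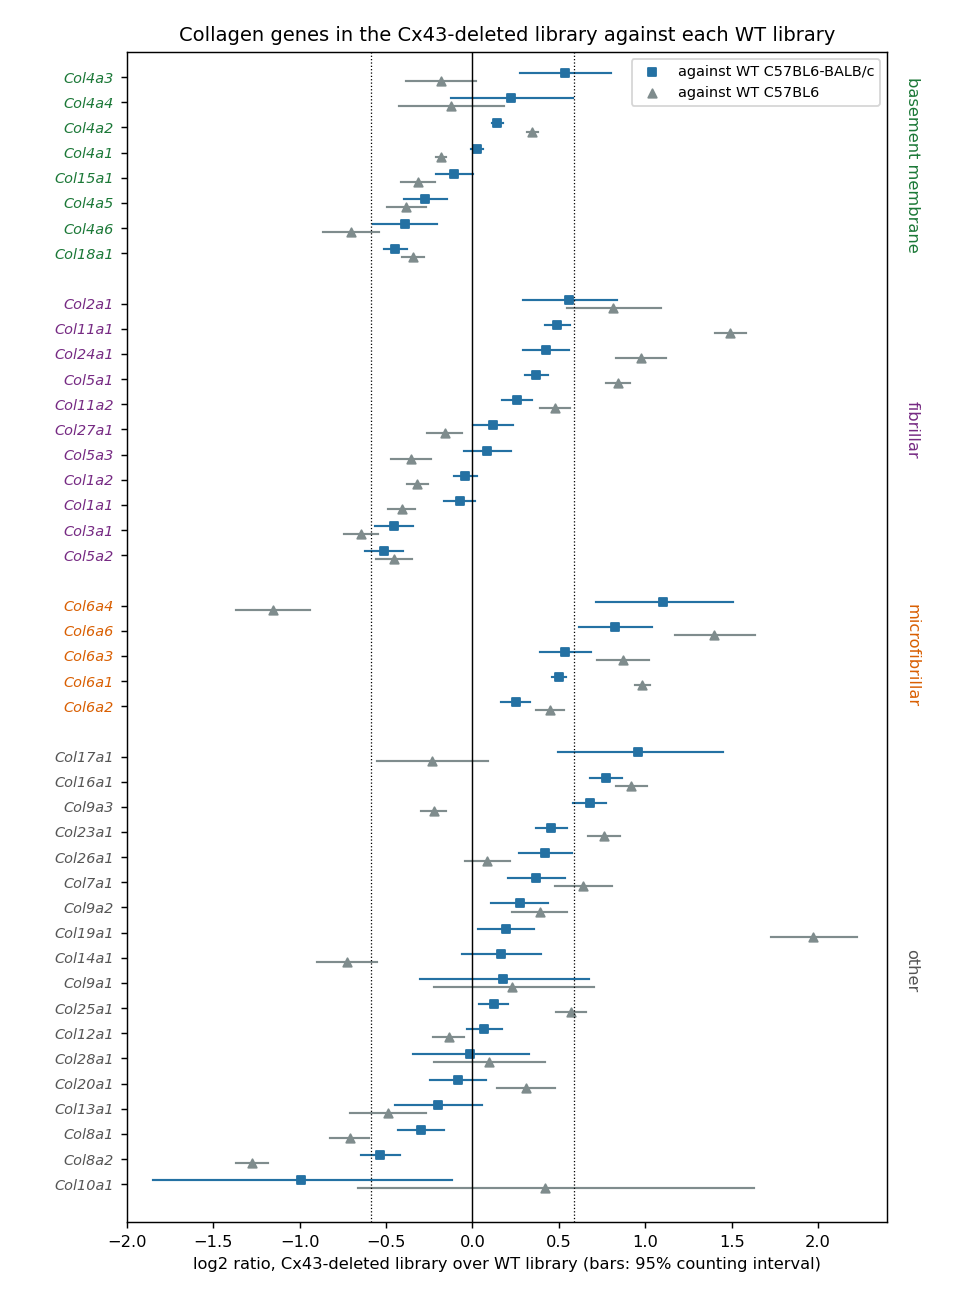
log2 ratio of each collagen in the Cx43-deleted library to WT C57BL6-BALB/c (squares) and to WT C57BL6 (triangles), computed from scaled reads with no pseudocount, with bars for the 95% counting interval, a solid line at no difference and dotted lines at 1.5-fold. Both symbols lie right of 0 for 4 of the 5 type VI genes, and both lie left of 0 for 4 of the 8 basement membrane genes.

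The basement membrane collagens split within type IV. Of the 8 genes, 1 (Col4a2) lay above both WT libraries in the Cx43-deleted library and 4 (Col18a1, Col15a1, Col4a5 and Col4a6) lay below both, where all genes had 33.4% and 35.6%, and none was 1.5-fold from both. Their median log2 ratios were -0.04 and -0.25 against WT C57BL6-BALB/c and WT C57BL6, and -0.21 for WT C57BL6-BALB/c over WT C57BL6, beside the all-gene medians given above.

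Col4a1 and Col4a2 encode the chains of the common type IV trimer, made of 2 alpha-1 chains and 1 alpha-2 chain, and neighbour each other on chromosome 8 of GRCm38 (chr8:11198423-11312826 and chr8:11312805-11449287). Col4a1 was counted with 24832, 9642 and 13467 reads. Its level was 1.02-fold that of WT C57BL6-BALB/c (0.995 to 1.04), while against WT C57BL6 it was 1.13-fold lower (1.11 to 1.16). Thus the Cx43-deleted library lay with the WT library of its own background, and the WT libraries differed by 1.16-fold (1.13 to 1.19). Col4a2 was counted with 32525, 11641 and 12225 reads. It was 1.10-fold higher in the Cx43-deleted library than in WT C57BL6-BALB/c (1.08 to 1.13), while against WT C57BL6 it was 1.27-fold higher (1.25 to 1.30). The Cx43-deleted library was thus highest and WT C57BL6 lowest for Col4a2, with a difference of 1.15-fold between the WT libraries (1.12 to 1.18). As a result the ratio of Col4a1 to Col4a2 per length was 0.744 (0.732 to 0.757), 0.808 (0.786 to 0.830) and 1.07 (1.05 to 1.10). This ratio is taken within a library and does not depend on the scaling between libraries. The 3 intervals did not overlap, and the larger step was between the WT libraries.

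The remaining type IV chains were far less abundant. Col4a5 and Col4a6 (chrX:141475385-141689234 and chrX:141165403-141474076) encode chains of minor type IV networks found in smooth muscle and some epithelial basement membranes. Col4a5 was counted with 1663, 794 and 1036 reads (4.76, 5.75 and 6.20 RPKM), 1.21-fold lower (1.11 to 1.31) and 1.30-fold lower (1.2 to 1.41) in the Cx43-deleted library. Col4a6 was counted with 714, 370 and 555 reads (2.01, 2.63 and 3.27 RPKM), 1.31-fold lower (1.15 to 1.49) and 1.63-fold lower (1.45 to 1.82). Both were lowest in the Cx43-deleted library and highest in WT C57BL6. Smooth muscle markers were also lower in the Cx43-deleted library, with 7 of 8 below both WT libraries, against 35.6% of all genes. Their summed levels were 1485, 2691 and 1859 RPM, highest in WT C57BL6-BALB/c. Only 1 of the 8 had the order of Col4a5 and Col4a6, against 26.7% of all genes. The part of smooth muscle in the result was not tested.

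Col4a3 and Col4a4 (chr1:82586921-82722059 and chr1:82448423-82586849) encode the chains of the network known from the kidney filter. Col4a3 was counted with 572, 156 and 310 reads (1.25, 0.863 and 1.42 RPKM), 1.45-fold above WT C57BL6-BALB/c (1.21 to 1.74), while against WT C57BL6 it was 1.13-fold lower (0.984 to 1.30). Its exons overlap another gene over 6.58% of their length, and the library kit does not mark strand, so its counts are uncertain. Col4a4 was counted with 269, 91 and 140 reads (0.842, 0.721 and 0.917 RPKM), and its folds of 1.17 (0.918 to 1.5) higher and 1.09 (0.881 to 1.34) lower had intervals that include 1. Both chains were lowest in WT C57BL6-BALB/c and highest in WT C57BL6. All 6 choroid plexus markers had this order too, against 17.1% of all genes, and their part in the result was not tested.

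Col18a1 and Col15a1 encode the multiplexins, basement membrane collagens that carry heparan or chondroitin sulfate, and Col18a1 is the source of the fragment endostatin. Col18a1 (chr10:77052178-77166548) was counted with 5189, 2798 and 3151 reads (15.3, 20.9 and 19.4 RPKM). It was 1.36-fold lower in the Cx43-deleted library than in WT C57BL6-BALB/c (1.30 to 1.43), while against WT C57BL6 it was 1.27-fold lower (1.21 to 1.33). Here the WT libraries lay within 1.07-fold of each other (1.02 to 1.13) and the Cx43-deleted library stood below both. Col15a1 was at 8.34, 8.96 and 10.4 RPKM, with an interval against WT C57BL6-BALB/c that includes 1 (1.07-fold lower, 0.996 to 1.16). Astrocyte markers summed to 1356, 1591 and 1636 RPM. Endothelial markers had 8 of 10 genes below both WT libraries (35.6% of all genes did), and all 10 were highest in WT C57BL6. Of the smooth muscle markers, 7 of 8 were highest in WT C57BL6-BALB/c, as Col18a1 was, against 22.7% of all genes. Of these, 6 were also lowest in the Cx43-deleted library, the order of Col18a1. The part of any of these cell types in the lower Col18a1 level was not tested.

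The fibrillar collagens lay on both sides of the WT libraries. Of 11 genes, 5 lay above both WT libraries in the Cx43-deleted library (Col5a1, Col11a1, Col11a2, Col24a1 and Col2a1) and 4 below both (Col1a1, Col1a2, Col3a1 and Col5a2), where 33.4% of all genes lay above both and 35.6% below both. The share below both was thus near that of all genes, and Col5a3 and Col27a1 lay between the WT libraries. The median log2 ratios in the same 3 comparisons were 0.11, -0.16 and 0.06.

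Col1a1 and Col1a2 encode the chains of type I, the bulk collagen of adventitia and meninges. Col1a1 (chr11:94936224-94953042) was counted with 3488, 1451 and 2216 reads (11, 11.6 and 14.6 RPKM), 1.05-fold lower (0.989 to 1.12) than in WT C57BL6-BALB/c and 1.33-fold lower (1.26 to 1.40) than in WT C57BL6. Col1a2 (chr6:4504814-4541544) was counted with 5831, 2371 and 3481 reads (20.4, 21 and 25.5 RPKM), 1.03-fold lower (0.980 to 1.08) and 1.25-fold lower (1.2 to 1.30). For both chains the libraries of the C57BL6-BALB/c background could not be separated beyond counting error, and WT C57BL6 was higher. The ratio of Col1a1 to Col1a2 per length was 0.539 (0.517 to 0.563), 0.552 (0.517 to 0.589) and 0.574 (0.544 to 0.606), with intervals that overlap in all 3 libraries. The intervals of the type I pair thus overlapped where those of Col4a1 and Col4a2 did not.

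Col3a1 (chr1:45311538-45349706) encodes type III, which forms mixed fibrils with type I in vessel walls. It was counted with 1914, 1037 and 1431 reads (6.43, 8.82 and 10.1 RPKM). The Cx43-deleted library was 1.37-fold lower than WT C57BL6-BALB/c (1.27 to 1.48), while against WT C57BL6 it was 1.56-fold lower (1.46 to 1.68). The WT libraries differed by 1.14-fold (1.05 to 1.24), less than either stood from the Cx43-deleted library. Markers of perivascular and meningeal fibroblasts other than collagens summed to 1311, 1344 and 1663 RPM, the order of the type I genes, with 5 of the 11 that passed below both WT libraries and 2 above both. Their part in these results was not tested. Taken singly, 4 of the 11 markers had the order of Col1a1 and Col1a2, against 26.7% of all genes. Of the rest, 3 were highest in WT C57BL6-BALB/c and 2 in the Cx43-deleted library. A further 2 peaked in WT C57BL6 but were lowest in WT C57BL6-BALB/c. Pdgfra, a receptor kinase that marks these fibroblasts, had the type I order, at 55.8, 59.1 and 75.1 RPM.

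Type V and XI chains nucleate fibrils and limit their thickness. Col5a1 was at 17.7, 13.7 and 9.87 RPKM, 1.29-fold (1.23 to 1.35) and 1.79-fold (1.71 to 1.88) higher in the Cx43-deleted library. Its partner Col5a2 was at 5.32, 7.59 and 7.28 RPKM, 1.43-fold (1.32 to 1.54) and 1.37-fold (1.27 to 1.47) lower. The chains of 1 molecule therefore lay on opposite sides of both WT libraries. Their ratio per length was 3.33 (3.16 to 3.50) in the Cx43-deleted library against 1.81 (1.68 to 1.94) in WT C57BL6-BALB/c and 1.36 (1.26 to 1.46) in WT C57BL6. Col5a3, the remaining type V chain, was at 4.91, 4.62 and 6.28 RPKM.

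Col11a1 was at 16.8, 12 and 5.98 RPKM, 1.40-fold (1.34 to 1.48) and 2.81-fold (2.64 to 3.00) higher in the Cx43-deleted library. The WT libraries differed by 2.00-fold (1.86 to 2.16), more than the Cx43-deleted library differed from the WT library of its background. Col11a2 was at 13.7, 11.4 and 9.82 RPKM in the same order of libraries. Col24a1, a minor fibrillar collagen, was at 5.33, 3.96 and 2.71 RPKM, again with this order. Col2a1, the cartilage collagen, was low at 1.94, 1.32 and 1.10 RPKM. Of 6 bone and cartilage markers 3 passed the filter, with a summed level of 8.51, 9.41 and 9.70 RPM over the list. The osteoblast marker Bglap had no read, and the part of such cells in the Col2a1 level was not tested. Col27a1 was at 5.60, 5.16 and 6.25 RPKM.

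**Figure D3:**
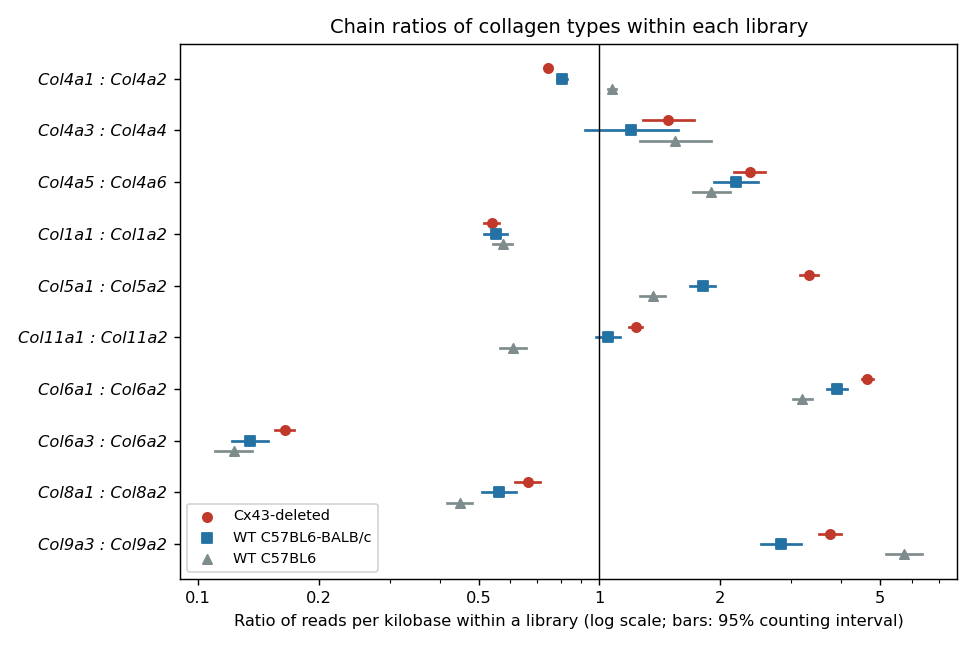
Ratio of the reads per kilobase of pairs of chains within each library (log scale), with bars for the 95% counting interval and a line at equal level. The Col5a1 to Col5a2 and Col6a1 to Col6a2 ratios are highest in the Cx43-deleted library, the Col4a1 to Col4a2 ratio lies under 1 in both libraries of the C57BL6-BALB/c background, and the Col1a1 to Col1a2 intervals overlap.

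The type VI genes mostly lay on the same side of the WT libraries. Of the 5 measured, 4 (Col6a1, Col6a2, Col6a3 and Col6a6) lay above both WT libraries in the Cx43-deleted library and none lay below both, beside 33.4% and 35.6% of all genes. Of these, 1 (Col6a6) was 1.5-fold or more above both, as were 1.17% of all genes. In all 4 the WT libraries were ordered too, with WT C57BL6 lowest, so part of the distance to WT C57BL6 was present between the WT libraries. The median log2 ratios were 0.53 against WT C57BL6-BALB/c, 0.85 against WT C57BL6, and 0.33 for WT C57BL6-BALB/c over WT C57BL6, where all genes had 0.00, -0.03 and -0.03. Their summed level was 572, 411 and 320 RPM, of which Col6a1 alone made up 425, 301 and 215 RPM.

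Col6a1, Col6a2 and Col6a3 encode the chains of the common type VI molecule, and Col6a1 and Col6a2 lie near each other on chromosome 10. Col6a1 (chr10:76708792-76726168) was counted with 22750, 6354 and 5500 reads. It was 1.42-fold higher in the Cx43-deleted library than in WT C57BL6-BALB/c (1.38 to 1.46), while against WT C57BL6 it was 1.98-fold higher (1.92 to 2.04). The WT libraries differed by 1.40-fold (1.35 to 1.45). The step between the WT libraries was thus about as large as that between the libraries of 1 background. Col6a2 (chr10:76595762-76623630) was counted with 4718, 1569 and 1655 reads (22.3, 18.8 and 16.4 RPKM), 1.19-fold (1.12 to 1.26) and 1.36-fold (1.29 to 1.44) higher. Col6a3 (chr1:90765923-90843971), the long chain, was counted with 1770, 483 and 463 reads (3.68, 2.54 and 2.01 RPKM), 1.45-fold (1.31 to 1.61) and 1.83-fold (1.65 to 2.03) higher. The proportions of the chains differed between libraries. The Col6a1 to Col6a2 ratio per length was 4.64 (4.50 to 4.79), 3.90 (3.69 to 4.13) and 3.20 (3.03 to 3.38), and the Col6a3 to Col6a2 ratio was 0.165, 0.135 and 0.123.

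Col6a6 and Col6a4 lie on chromosome 9 and encode chains that can take the place of the alpha-3 chain. Col6a6 (chr9:105687809-105828160) was counted with 1004, 224 and 182 reads (3.97, 2.24 and 1.51 RPKM), 1.77-fold above WT C57BL6-BALB/c (1.53 to 2.06), while against WT C57BL6 it was 2.64-fold higher (2.25 to 3.11). Its transcript had no read over 9.31%, 24.2% and 25.3% of its bases. The share without a read was lowest in the Cx43-deleted library, which was also the most deeply sequenced. Col6a4 (chr9:105989454-106096783) was the exception in type VI, with 353, 65 and 376 reads (0.894, 0.416 and 1.99 RPKM). It was 2.15-fold above WT C57BL6-BALB/c (1.64 to 2.84), while against WT C57BL6 it was 2.23-fold lower (1.92 to 2.58). Its WT libraries differed by 4.78-fold (3.67 to 6.32), and 66.3% of its bases had no read in WT C57BL6-BALB/c against 27.1% in the Cx43-deleted library and 23.6% in WT C57BL6.

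The highest summed level lay in WT C57BL6 for fibroblast and pericyte markers and in WT C57BL6-BALB/c for smooth muscle markers. Pericyte markers summed to 1867, 1804 and 2932 RPM, with 0 of 8 above both WT libraries (33.4% of all genes were). Against WT C57BL6-BALB/c, 5 of the 8 were higher and 3 lower in the Cx43-deleted library, at a median log2 ratio of 0.05. Against WT C57BL6 all 8 were lower, at a median of -0.70. Of the neuron markers, 3 of 6 had the order of Col6a1 (24.1% of all genes did) and 2 lay below both WT libraries (35.6% of all genes). Their list median log2 ratio was -0.06 (over WT C57BL6-BALB/c) and 0.25 (over WT C57BL6). The part of any of these cell types in the type VI levels was not tested.

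The other 18 collagens showed no common direction: 8 exceeded both WT libraries and 3 lay below both (33.4% and 35.6% of all genes did), at median log2 ratios of 0.15, 0.14 and 0.07. Of the fibril-associated collagens, which bind to the surface of fibrils, Col16a1 (chr4:130047840-130099283) stood furthest from both WT libraries. It was counted with 4846, 1122 and 1225 reads (17.4, 10.2 and 9.20 RPKM), 1.71-fold above WT C57BL6-BALB/c (1.6 to 1.82), while against WT C57BL6 it was 1.89-fold higher (1.78 to 2.02). The WT libraries differed by only 1.11-fold (1.02 to 1.2), so that the Cx43-deleted library stood apart from both. Col19a1 had another pattern, with 1238, 428 and 151 reads (5.43, 4.75 and 1.38 RPKM). It was 1.14-fold above WT C57BL6-BALB/c (1.02 to 1.28), while against WT C57BL6 it was 3.92-fold higher (3.31 to 4.67), and the WT libraries differed by 3.43-fold (2.84 to 4.15). The larger step thus lay between WT C57BL6 and both libraries of the C57BL6-BALB/c background.

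Col9a3, a chain of type IX, was at 29.2, 18.3 and 34.2 RPKM and so was highest in WT C57BL6, though its exons overlap another gene over 8.08% of their length and its counts are uncertain. Its partners were at 7.80, 6.45 and 5.95 RPKM (Col9a2) and 0.683, 0.605 and 0.582 RPKM (Col9a1). Col14a1 was at 1.78, 1.59 and 2.94 RPKM and Col12a1 at 4.69, 4.47 and 5.15 RPKM. Col9a3, Col12a1 and Col14a1 were among the 10 collagens (23.8%) that were highest in WT C57BL6 and lowest in WT C57BL6-BALB/c, against 17.1% of all genes. This was the order of all 6 choroid plexus markers, whose part in it was not tested. Col20a1 was at 4.66, 4.93 and 3.76 RPKM. In all, 5 collagens (11.9%) were highest in WT C57BL6-BALB/c (Col5a2, Col10a1, Col18a1, Col20a1 and Col28a1), against 22.7% of all genes, and 19 (45.2%) in WT C57BL6, against 43.8%. Of the 5, Col10a1 passed the filter only through WT C57BL6-BALB/c.

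The short-chain collagens of type VIII, which form a network beneath endothelium, were lower in the Cx43-deleted library. Col8a2 was counted with 1810, 1035 and 2093 reads (7.81, 11.3 and 18.9 RPKM), 1.45-fold (1.34 to 1.56) and 2.42-fold (2.27 to 2.58) lower, and after a correction for GC content it was the only collagen 1.5-fold or more below both WT libraries. Col8a1 was at 5.17, 6.35 and 8.47 RPKM in the same order of libraries, 1.23-fold (1.12 to 1.35) and 1.64-fold (1.51 to 1.77) lower. Endothelial markers had this order as well in 8 of 10 genes, against 26.7% of all genes. Their median log2 ratios were -0.17 (over WT C57BL6-BALB/c) and -1.01 (over WT C57BL6), and their part in the type VIII levels was not tested. Col10a1, the collagen of growing cartilage, was near the limit of detection at 0.167, 0.332 and 0.125 RPKM.

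The transmembrane collagens, which sit in the cell membrane, did not share a direction. Col23a1 was at 14.4, 10.5 and 8.50 RPKM, 1.37-fold (1.29 to 1.46) and 1.69-fold (1.59 to 1.81) higher in the Cx43-deleted library. Col25a1, made by neurons and found in amyloid plaques, was at 12.7, 11.6 and 8.53 RPKM. Of the 6 neuron markers 3 had this order of libraries and 2 lay below both WT libraries, against 24.1% and 35.6% of all genes, and their part was not tested. Col13a1 was at 2.53, 2.90 and 3.55 RPKM and Col17a1 at 0.756, 0.389 and 0.889 RPKM. Of the types left, Col7a1, the anchoring fibril collagen, was at 2.66, 2.06 and 1.71 RPKM, Col26a1 at 10.5, 7.86 and 9.93 RPKM, and Col28a1 at 1.18, 1.19 and 1.10 RPKM.

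For the genes that process or bind collagen, each of 8 lists had a median log2 ratio against WT C57BL6-BALB/c below the 0.15 of the collagens. The counts of these lists stand beside the 33.4% of all genes above both WT libraries, the 35.6% below both and the 1.99% at 1.5-fold or more below both. Of 15 enzymes that modify collagen chains, 5 exceeded both WT libraries and 7 lay below both, at medians of -0.21 and -0.10 on the log2 scale, and the share above both was that of all genes. Ppib, a proline isomerase of the hydroxylation complex, was at 98.7, 190 and 173 RPM, but 57.6% of its exon length overlaps other genes and its counts are uncertain. Of 9 chaperones and secretion factors measured (of 10 listed), 1 lay above both and 5 below both (medians -0.08 and -0.45). Serpinh1 encodes HSP47, the collagen-specific chaperone, and was counted with 6589, 4523 and 7679 reads (123, 214 and 300 RPM). It was 1.74-fold lower in the Cx43-deleted library than in WT C57BL6-BALB/c (1.67 to 1.8), while against WT C57BL6 it was 2.44-fold lower (2.36 to 2.52). Before a correction for GC content no collagen was 1.5-fold or more below both WT libraries, whereas this chaperone was.

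Propeptide processing genes had 4 of 8 above both WT libraries and 1 below both (medians 0.08 and 0.25). Bmp1, the C-propeptide protease, was at 286, 220 and 168 RPM, the order of Col6a1, and Tll1, a related protease, at 3.05, 3.69 and 5.63 RPM. Of 7 cross-linking genes none lay above both and 3 lay below both (medians -0.26 and -0.19). The furthest were the lysyl oxidase-like enzymes Loxl2 (3.10, 3.83 and 7.12 RPM, with 5.79% of its exon length overlapping another gene, so uncertain) and Loxl1 (7.57, 9.84 and 8.57 RPM). Of 15 degradation genes 12 passed the filter, with 2 above both and 4 below both (medians -0.01 and -0.25). Mmp9, which cleaves type IV collagen, was at 6.04, 4.02 and 3.32 RPM, and Mmp15, a membrane-bound protease, at 30.5, 43.1 and 66.7 RPM. Neither was 1.5-fold from both WT libraries on the log2 scale used.

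Of 11 collagen receptors 9 passed the filter, and 3 exceeded both WT libraries while 4 lay below both (medians -0.01 and -0.15). Itga11, an integrin chain that binds fibrillar collagen, was at 14.3, 10.3 and 9.51 RPM, and Itga1, which binds type IV, at 34.8, 47.1 and 53.0 RPM, with 6.25% of its exon length shared with another gene and so uncertain. Of 16 other genes of the basement membrane 11 lay below both WT libraries, against 35.6% of all genes, and 2 exceeded both, against 33.4% (medians -0.15 and -0.45). Lama4, the laminin chain of endothelium, was at 35.7, 48.8 and 69.0 RPM, and Lamc1, the common laminin gamma chain, at 162, 209 and 209 RPM.

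Small proteoglycans, which coat fibrils and set their spacing, had the lowest medians of the 8 lists. Of 9 listed 8 passed the filter, and 6 lay below both WT libraries (35.6% of all genes did), 4 of these at 1.5-fold or more (1.99% of all genes), while 1 lay above both (33.4% of all genes) (medians -0.63 and -0.54). Lum was at 8.88, 16.4 and 20.9 RPM, Dcn at 58.0, 93.1 and 102 RPM, and Bgn at 151, 227 and 278 RPM. In fold terms Lum was 1.84-fold (1.6 to 2.12) and 2.36-fold (2.08 to 2.67) lower, and Dcn 1.6-fold (1.52 to 1.70) and 1.76-fold (1.67 to 1.86) lower. Prelp was at 137, 225 and 230 RPM, with 9.68% of its exon length overlapping another gene, so uncertain. Lum and Dcn also stand in the fibroblast marker list, and both were lower while Col1a1 and Col1a2 were not separated from WT C57BL6-BALB/c beyond counting error. They were the only 2 of the 11 fibroblast markers that passed to lie 1.5-fold or more below both WT libraries. Against WT C57BL6-BALB/c the median log2 ratio of that list was -0.08, with 4 markers higher and 7 lower in the Cx43-deleted library.

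**Figure D4:**
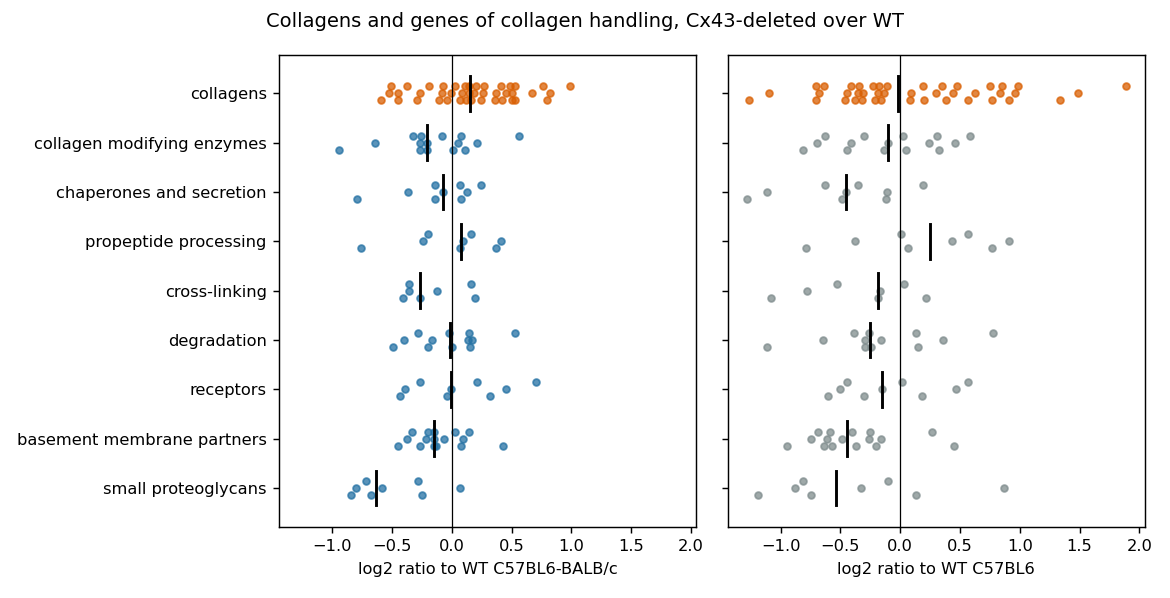
log2 ratio of the Cx43-deleted library to WT C57BL6-BALB/c (left) and to WT C57BL6 (right) for collagens and for lists of genes that modify, fold, process, cross-link, degrade or bind them, with 1 point per gene that passed the filter and a bar at the median. The small proteoglycans have the lowest median against both WT libraries, and the collagens spread to both sides of 0.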

How the data were processed

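Brain vessel RNA was measured in 3 libraries, 1 per group, grouped from the labels. Per the labels' protocols, poly(A)+ RNA was made into libraries with a TruSeq v2 kit, which does not mark strand. The submitters' processing notes name CASAVA 1.8.2, Bowtie and mm10, with the counting program not given in the sources used here. Per the file headers, the authors deposited a whole-number read count for each of 82813 Ensembl transcripts, not normalised. A second deposited column gives each count as a fraction of the library total, from which the totals were recovered. Further deposited columns, per the file headers, give the transcript length and its bases with no read. The counts sum to 2.55, 2.53 and 2.45 times the totals (Cx43-deleted first, then WT C57BL6-BALB/c, then WT C57BL6), so a read was counted on several transcripts.

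Transcripts were matched to genes by identifier in GENCODE M21 (GRCm38). Of them 69375 (83.8%) matched, 213 on another chromosome were left out, and 13438 were unmatched. The tables' own coordinates reach past the end of the last GRCm38 gene on chromosome 1 and were not used. A gene's value was the read count of its protein-coding transcript with most reads, the same in each library. Counts were divided by the library total times the TMM factor of edgeR 4.0.16 (0.973, 0.999 and 1.03) to give RPM, in which 1 RPM is 53.5, 21.1 and 25.6 reads, and by length to give RPKM. Genes that reached 1 RPM in any library were kept, and log2 ratios used a pseudocount of 0.5 RPM. Intervals are exact binomial intervals of the split of reads, for counting error only. With 1 library per group there was no test. On simulated data of 15854 genes, all 50 genes raised 3-fold and all 50 lowered 3-fold in the Cx43-deleted library against both WT libraries were called in the right direction at 1.5-fold. Of 50 genes raised 1.2-fold and 50 lowered 1.2-fold, 0 were called. The simulated counts varied by counting error only, with no spread between mice. They therefore check the calculation and not how reliable a call is.

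The collagens, the gene and marker lists and the rules were chosen with earlier results of these data known. All collagens are given, types I, III, IV, VI and XVIII and those 1.5-fold from both WT libraries with reads, folds and intervals. Folds of other members were added after their values were seen. From each partner list the genes 1.5-fold from both WT libraries are named, at most 4, or the 2 furthest. Exons overlapping another gene by 5% or more mark a gene as uncertain. Alternatives were other scalings, summed transcript counts, pseudocounts, filters and folds, and corrections for GC content and length that were chosen after seeing the data.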

Additional observations from a re-analysis of the deposited data

How the results depend on the processing

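No paired analysis was possible because each group has 1 library. The type VI medians stayed positive in all 13 alternative settings for every comparison (0.49 to 0.69 against WT C57BL6-BALB/c, 0.70 to 1.86 against WT C57BL6). Not all of these settings could change them. The filter settings, the regrouping of the multiplexins and the removal of overlapping collagens left the type VI medians as they were. Centring on markers only shifted them by a constant. Other medians changed sign. The family's median of -0.01 against WT C57BL6 kept its sign in 6 of 12 settings, and that of 0.05 between the WT libraries in 11 of 12. Against WT C57BL6 the basement membrane median of -0.25 kept its sign in 12 of 13 settings and was 0.76 relative to the endothelial markers, and the fibrillar median of -0.16 kept its sign in 11 of 13, with 0.85 and 0.02 relative to the endothelial and fibroblast markers. Against WT C57BL6-BALB/c the basement membrane median of -0.04 kept its sign in 10 of 13. Col16a1, Col6a6, Col6a1 and Col3a1 kept their sign in 9 of 9 settings for every comparison, and Col4a1 against WT C57BL6-BALB/c in 7 of 9. The filter settings among the 9 cannot change the ratio of a single gene. With a fold of 2, the counts against WT C57BL6-BALB/c were 0 higher and 0 lower, against WT C57BL6 3 (Col11a1, Col19a1 and Col6a6) and 2 (Col6a4 and Col8a2), and between the WT libraries 1 (Col19a1) and 2 (Col17a1 and Col6a4), and 0 collagens lay that far above both. The 1 lower collagen against WT C57BL6-BALB/c, Col10a1, was lost, leaving 0, with a pseudocount of 1, with a minimum of 5 RPM and after correction for transcript length. It was also lost relative to the endothelial or fibroblast markers, and after correction for GC content, where Col8a2 took its place. Relative to the endothelial markers, the family's medians were 0.32, 0.996 and 0.78 (Cx43-deleted over WT C57BL6-BALB/c, over WT C57BL6, and WT over WT), and relative to the fibroblast markers 0.17 against WT C57BL6. By construction these settings subtract the marker median from every gene, which moves the median of all genes to 0.98 for the endothelial markers against WT C57BL6. Corrected for GC content, 5 collagens were higher in WT C57BL6-BALB/c than in WT C57BL6 (Col24a1 and Col6a6 were added) and 1, Col8a2, lay 1.5-fold below both WT libraries. The share of all genes was not computed at 2-fold or in any other alternative setting, so these counts have no background beside them. Corrected for transcript length, the median between the WT libraries was -0.0947; the cause was not tested. Library totals alone moved the median of all genes to -0.11 against WT C57BL6. A floor of 3 reads was chosen, not measured, as the level under which a gene is not told from 0. It is 0.0561, 0.142 and 0.117 RPM in the libraries (Cx43-deleted first, WT C57BL6 last).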
